A study of Homo sapiens with 12 samples.

Results

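The HOXB cluster is the run of homeobox genes on human chromosome 17 that lies between HOXB1 and HOXB13. Described here are HOXB2, HOXB3, HOXB4, HOXB5, HOXB6, HOXB7, HOXB8 and HOXB9, which are 8 of the 60708 genes listed in the files and 8 of the 15388 genes that passed the filter on low counts. They were taken by gene symbol, and they had been chosen by their CPM and TPM in the 4 clones of these same data, so the differences between clones below are a description. Messenger RNA was measured in hTERT RPE-1, an immortalised line of human retinal pigment epithelial cells. The groups were LmnB1_16 and LmnB1_6, clonal lines with overexpression of mCherry-LmnB1, a fusion of a red fluorescent protein with the nuclear envelope protein lamin B1, and mCherry_4 and mCherry_3, clonal lines with overexpression of mCherry alone. Each clone gave 3 libraries labelled as biological replicates, 12 in all. All 4 lines grew with hygromycin B in the medium and had doxycycline at 0.05 ug/mL for 24 hours. Each line is 1 clone, and the promoter behind each construct is not stated in the labels. Depth was 20.6 to 29.5 M counts per library. LMNB1, whose counts also hold reads of the fusion construct, averaged 3374 ± 273 CPM in LmnB1_16, 3976 ± 164 CPM in LmnB1_6, 161 ± 7.29 CPM in mCherry_4 and 84.98 ± 7.12 CPM in mCherry_3 (SD, n = 3 libraries each). The construct comparison counts 6 libraries per construct as independent although they come from 2 clones, and its spread holds the differences between those clones.

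HOX genes encode transcription factors with a homeodomain, a small DNA-binding fold, and they give cells along the head to tail axis of the embryo their position. The genes of a cluster lie in the order in which they are switched on, with genes near the HOXB1 end starting earlier and reaching further towards the head than genes near the HOXB13 end. Retinoic acid, Polycomb and Trithorax chromatin complexes control the clusters, with Polycomb holding them silent where they are off and Trithorax keeping them active where they are on.

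All 8 genes are read from the reverse strand of GRCh38. In the GENCODE 29 transcripts, the median of the longest exact run shared by 2 members was 18.5 bases over the 28 pairs. The exception was HOXB3 with HOXB6, whose annotated transcripts share an exact run of 434 bases, so reads from that run cannot be given to either gene alone. The other pairs shared at most 65 bases.

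HOXB genes were high in LmnB1_6, intermediate in mCherry_3 and low in LmnB1_16 and mCherry_4. Levels compared between genes are given in TPM (an abundance scaled to library size and transcript length), and levels of 1 gene between clones in CPM (a count divided by its TMM-adjusted library total). The 8 genes summed to 7.30, 9.94 and 7.89 TPM in LmnB1_16, 167, 165 and 177 TPM in LmnB1_6, 3.03, 3.58 and 4.28 TPM in mCherry_4, and 30.3, 27.3 and 26.7 TPM in mCherry_3. The sums of the 4 clones did not overlap, and both the highest and the next to lowest clone carried LmnB1. HOXB4 alone made up 4.46 of the mean sum of 8.38 TPM in LmnB1_16, and 0.0910 of 3.63 TPM in mCherry_4. LmnB1_6 had the highest mean CPM for 7 of the members, and mCherry_3 had it for HOXB7. In bulk RNA, fewer cells with a transcript and less of it per cell cannot be told apart.

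**Figure D1:**
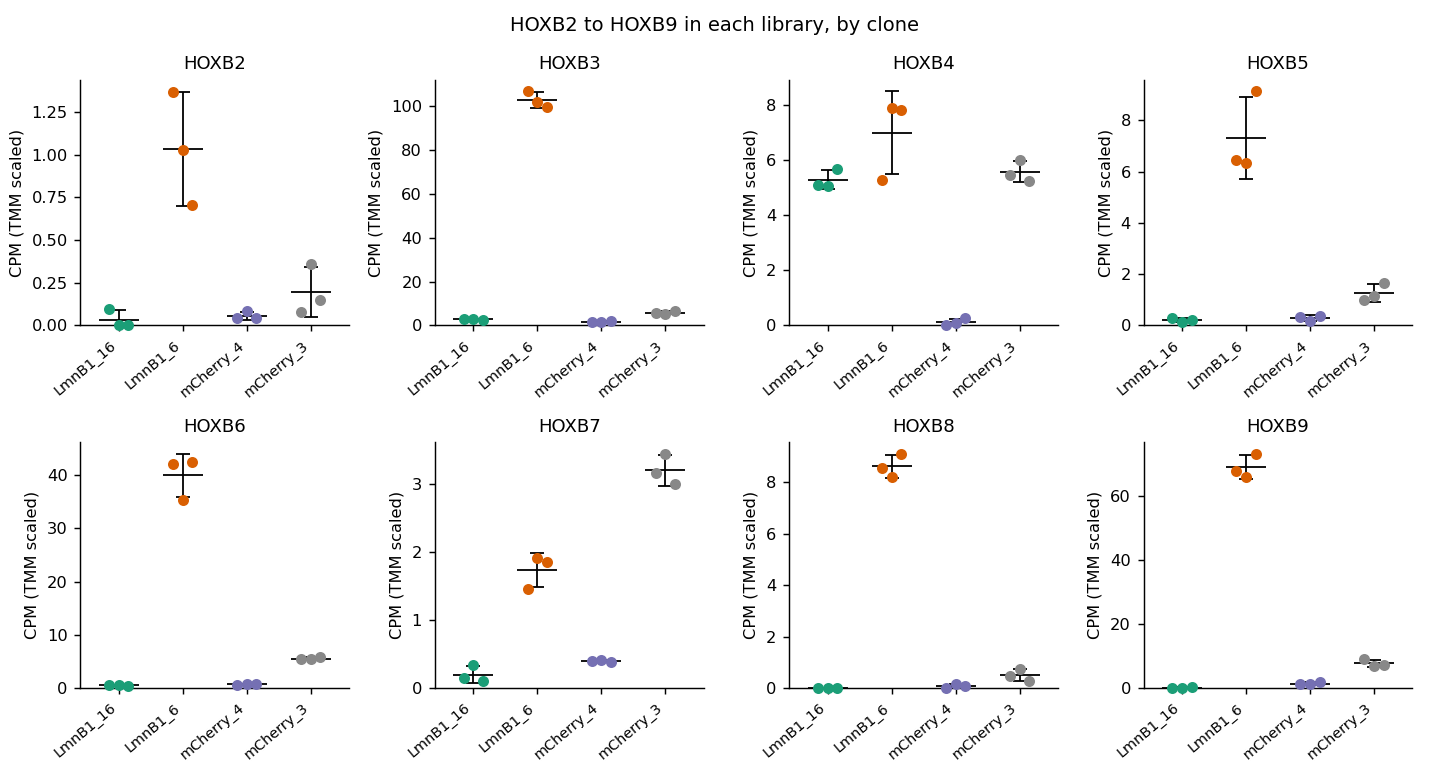
CPM (TMM scaled) of HOXB2 to HOXB9, 1 panel per gene with its own vertical axis from 0, with 1 point per library, 3 libraries per clone, a bar at the clone's mean and whiskers of 1 SD. LmnB1_6 stands above the other clones for HOXB2, HOXB3, HOXB5, HOXB6, HOXB8 and HOXB9, while HOXB4 is near 0 in mCherry_4 alone and HOXB7 is highest in mCherry_3.

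At the HOXB1 end of the cluster lie the genes that pattern the hindbrain. HOXB2 (chr17:48540894-48544989), which acts in the hindbrain segment that forms the facial motor nucleus in mice, had 0.0973, 0 and 0 CPM in LmnB1_16, 1.37, 1.03 and 0.705 CPM in LmnB1_6, 0.0451, 0.0835 and 0.0424 CPM in mCherry_4 and 0.0761, 0.358 and 0.148 CPM in mCherry_3. It was the faintest member in LmnB1_6, and its counts summed to 2 in LmnB1_16, 74 in LmnB1_6, 4 in mCherry_4 and 16 in mCherry_3. The libraries of LmnB1_6 lay above all others, and those of LmnB1_16, mCherry_4 and mCherry_3 overlapped. HOXB2 passed the filter on low counts chiefly through LmnB1_6, with at least 10 counts in all 3 of its libraries and in 1 library of mCherry_3. Its effective length, the length behind the deposited TPM, was 601, 627 and 535 bases in LmnB1_6 and 1410.0, 1429 and 1417 bases in mCherry_3, so its TPM and its CPM differ in scale between those clones.

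HOXB3 (chr17:48548870-48604912), a gene of the hindbrain and the pharyngeal arches, was the most abundant member by TPM in LmnB1_6 and in mCherry_4. It had 2.92, 2.90 and 2.53 CPM in LmnB1_16, 107, 102 and 99.9 CPM in LmnB1_6, 1.62, 1.63 and 2.16 CPM in mCherry_4 and 5.55, 5.45 and 6.48 CPM in mCherry_3. No 2 clones overlapped for HOXB3, and LmnB1_6 was 17.7-fold above mCherry_3, the next clone. LmnB1_16 was 1.54-fold above mCherry_4 and below mCherry_3. Its annotated span runs over HOXB4, HOXB5 and HOXB6 on the same strand.

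HOXB4 (chr17:48575513-48580111), which expands blood stem cells when overexpressed, had a pattern of its own. It had 5.11, 5.06 and 5.68 CPM in LmnB1_16, 5.26, 7.90 and 7.82 CPM in LmnB1_6, 0, 0.0835 and 0.254 CPM in mCherry_4 and 5.48, 6.02 and 5.25 CPM in mCherry_3. The libraries of LmnB1_16, LmnB1_6 and mCherry_3 overlapped at about the same level, and mCherry_4 lay below them, with 0, 2 and 6 counts in its 3 libraries. HOXB4 was 49.6-fold lower in mCherry_4 than in mCherry_3, the widest gap between the mCherry clones among the members. Per length it was the leading member in LmnB1_16, at 4.46 ± 0.255 TPM (SD, n = 3), followed by HOXB3 at 2.40 ± 0.624 TPM.

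In the middle of the cluster, HOXB5 (chr17:48591257-48593961), which places the shoulder girdle in mice, had 0.292, 0.147 and 0.220 CPM in LmnB1_16, 6.46, 6.33 and 9.13 CPM in LmnB1_6, 0.316, 0.167 and 0.381 CPM in mCherry_4 and 0.989, 1.15 and 1.67 CPM in mCherry_3. HOXB6 (chr17:48595751-48604992), a gene of vertebral identity in mice, had 0.633, 0.590 and 0.403 CPM in LmnB1_16, 42.1, 35.3 and 42.5 CPM in LmnB1_6, 0.542, 0.751 and 0.847 CPM in mCherry_4 and 5.40, 5.41 and 5.81 CPM in mCherry_3. For both genes LmnB1_6 lay above mCherry_3, mCherry_3 above the remaining clones, and LmnB1_16 overlapped with mCherry_4. LmnB1_6 exceeded mCherry_3 by 5.77-fold for HOXB5. The same ratio was 7.21-fold for HOXB6, whose counts are uncertain where they touch the run shared with HOXB3.

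HOXB7 (chr17:48607227-48633572), a gene often raised in carcinomas, was the member that was highest in an mCherry clone. It had 0.146, 0.344 and 0.110 CPM in LmnB1_16, 1.46, 1.91 and 1.85 CPM in LmnB1_6, 0.406, 0.417 and 0.381 CPM in mCherry_4 and 3.16, 3.44 and 2.997 CPM in mCherry_3. No 2 clones overlapped, and the order was mCherry_3, LmnB1_6, mCherry_4 and LmnB1_16. LmnB1_6 reached 0.543 times the level of mCherry_3. On the TPM scale the libraries of LmnB1_6 ran from 1.84 to 4.42 TPM and those of mCherry_3 from 4.23 to 5.72 TPM, so they overlapped there. The effective length of HOXB7 was 1085, 605 and 679 bases in LmnB1_6.

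Towards HOXB13 lie the genes of the trunk. HOXB8 (chr17:48611377-48614939), which keeps myeloid progenitors dividing when overexpressed, had 0 CPM in every library of LmnB1_16, 8.56, 8.19 and 9.10 CPM in LmnB1_6, 0, 0.167 and 0.0847 CPM in mCherry_4 and 0.457, 0.752 and 0.296 CPM in mCherry_3. No read was counted for HOXB8 in LmnB1_16, and with 3 counts over its libraries as the floor, which covers counting error only, the gene was at least 196-fold lower there than in LmnB1_6. HOXB9 (chr17:48621159-48626356), which shapes the ribs and the mammary gland in mice, had 0.146, 0.147 and 0.293 CPM in LmnB1_16, 67.8, 65.9 and 72.995 CPM in LmnB1_6, 1.17, 1.29 and 1.91 CPM in mCherry_4 and 9.05, 6.81 and 7.29 CPM in mCherry_3. No 2 clones overlapped for HOXB9, and it was 353-fold lower in LmnB1_16 than in LmnB1_6, where LmnB1_16 had 14 counts in all. LmnB1_6 was above mCherry_3 by 17.2-fold for HOXB8 and by 8.93-fold for HOXB9.

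**Figure D2:**
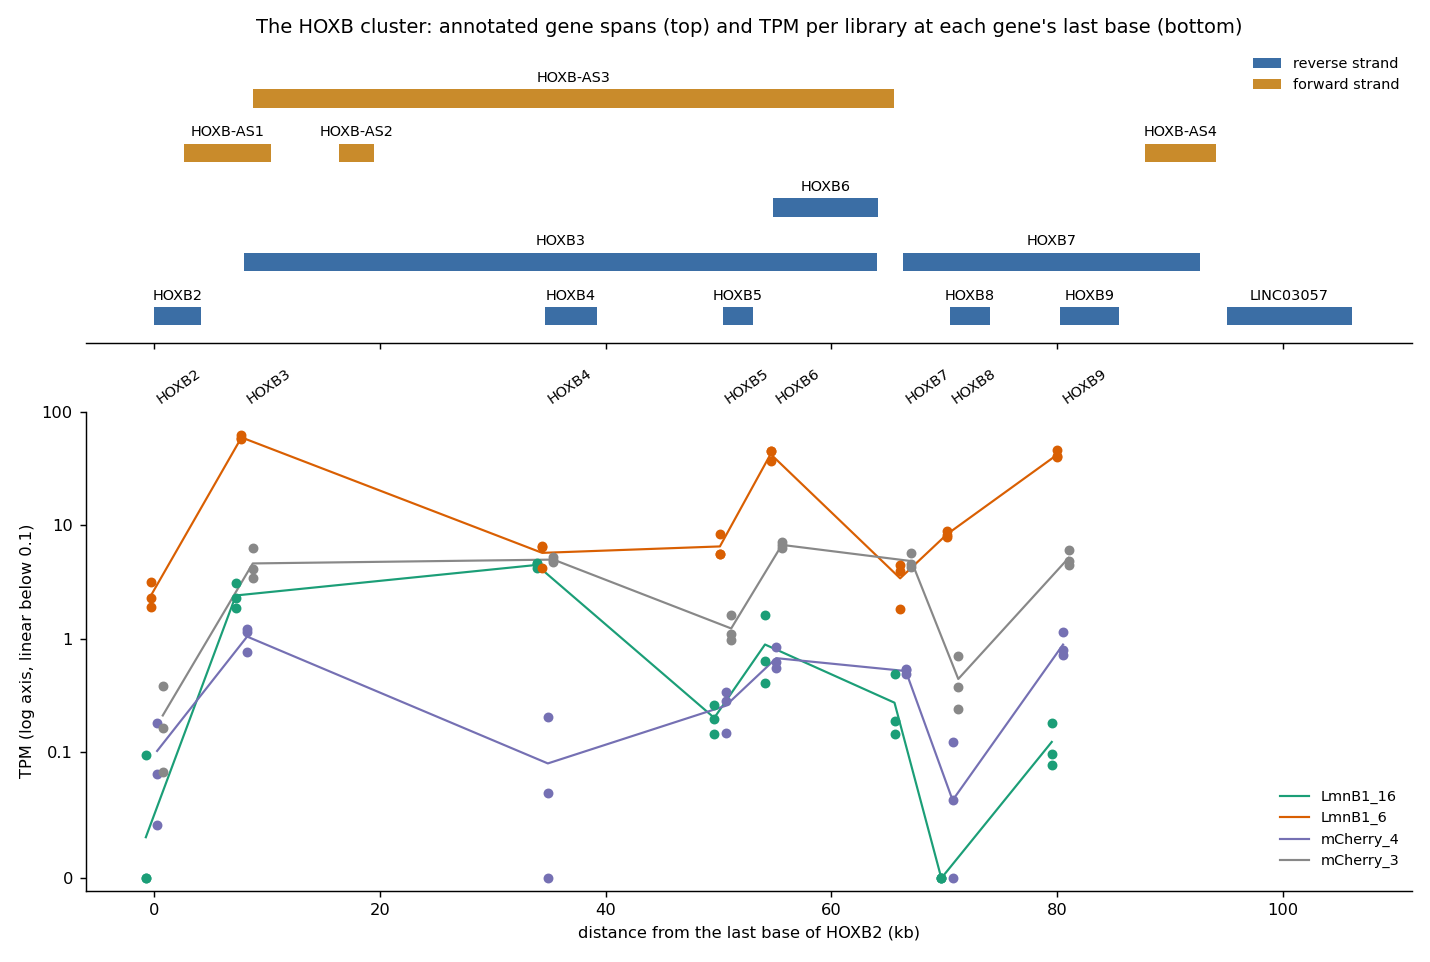
Annotated spans of the members, of their antisense genes and of LINC03057, with the distance in kb from the last transcribed base of HOXB2 (top), and the TPM of each member in each library on a log axis that is linear below 0.1, placed at the last transcribed base of the gene, with lines through the 3 libraries' means (bottom). LmnB1_6 is highest at HOXB3, HOXB6 and HOXB9 and drops to the level of mCherry_3 at HOXB4 and HOXB7; points are shifted sideways by clone.

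The order of the members by TPM differed between the clones. In LmnB1_6, HOXB3 led at 59.3 TPM, above HOXB6 at 42.3 and HOXB9 at 41.9 TPM, whose libraries overlapped. After a gap came HOXB8 at 8.31, HOXB5 at 6.49, HOXB4 at 5.70, HOXB7 at 3.40 and HOXB2 at 2.45 TPM, and each of these overlapped with the next. In mCherry_3, HOXB6 led at 6.70 TPM, and HOXB9, HOXB4, HOXB7 and HOXB3, between 4.60 and 5.15 TPM, overlapped with their neighbours in the order. In mCherry_4 no member averaged above HOXB3 at 1.04 TPM, which overlapped with HOXB9 at 0.886 TPM. Levels did not follow the order of the genes on the chromosome in any clone: HOXB8 was below both of its neighbours in mCherry_3 and in mCherry_4 and below HOXB9 in LmnB1_6, and HOXB2 was below HOXB3 in every clone.

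Across the 12 libraries, which hold only 4 clones and so mainly compare clones, HOXB2, HOXB3, HOXB5, HOXB6, HOXB8 and HOXB9 ran together, with Pearson's r of log2 CPM between 0.876 and 0.983 over their 15 pairs. HOXB4 correlated with these 6 genes at 0.32 to 0.562, and HOXB7 at 0.557 to 0.798. HOXB4 and HOXB7 had an r of 0.391 with each other. The neighbours HOXB5 and HOXB6 were the most alike pair, at 0.983, but likeness did not always go with being neighbours: HOXB6 and HOXB8, with HOXB7 between them, had an r of 0.976, against 0.782 for HOXB6 with HOXB7. HOXB3 and HOXB6, which share the 434-base run, had an r of 0.948, and the part of shared reads in it was not tested.

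**Figure D3:**
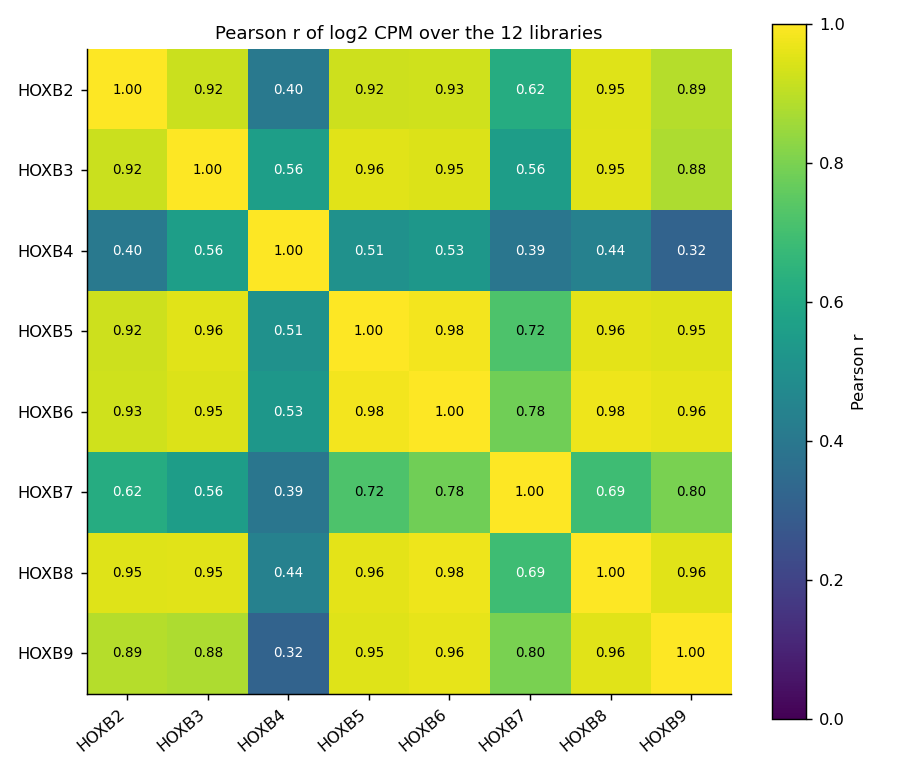
Pearson's r of log2 CPM for each pair of members over the 12 libraries of 4 clones, in chromosome order, with the r printed in each square. HOXB4 and HOXB7 stand apart from the other 6 genes, whose pairs lie between 0.876 and 0.983.

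Set construct against construct, the members showed no clean separation. HOXB3 had 2.53, 51.4 and 107 CPM (lowest, median and highest) in the 6 LmnB1 libraries and 1.62, 3.80 and 6.48 CPM in the 6 mCherry libraries. HOXB9 had 0.146, 33.1 and 72.995 CPM (lowest, median and highest) in the 6 LmnB1 libraries and 1.17, 4.36 and 9.05 CPM in the 6 mCherry libraries. The 2 sets of libraries overlapped for all 8 members. Within each construct 1 clone was high and the other low for the members besides HOXB4, which was low in mCherry_4 alone, and HOXB2, whose mCherry libraries overlapped. The fitted log2 fold change was 3.78 ± 1.02 (SE) for HOXB3, 2.90 ± 1.25 for HOXB9, 1.10 ± 0.86 for HOXB4 and -0.89 ± 0.79 for HOXB7. The median over the members was 2.47, beside 0.00 over all genes tested. With edgeR's quasi-likelihood test at an adjusted p under 0.05, 1 of the 8 members was called, HOXB3, as higher with LmnB1, where 17.8% of all tested genes were called, 8.58% higher and 9.25% lower. The contrast was among those that led to the choice of the members, so nothing is read from the count.

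The construct values for HOXB genes rested on single clones. Without clone LmnB1_6 the fitted log2 fold change was -0.46 for HOXB3 and -4.47 for HOXB9, so both signs turned. HOXB9 was then called, as lower with LmnB1, and HOXB3 was not. Without clone mCherry_3, HOXB3 was not called either, and HOXB4 was called higher, at a log2 fold change of 5.69. Without clone LmnB1_16, 6 of the 8 members were called higher, and without clone mCherry_4 none was, although 5 had an unadjusted p under 0.05 with all clones in. Leaving out any 1 library of mCherry_3, or replicate 1 or 2 of LmnB1_6, also brought the count to 0, and leaving out any 1 library of LmnB1_16 brought it to 2 with HOXB8.

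The fitted changes of LmnB1_16 and LmnB1_6 against the mCherry clones had the same sign for HOXB4 and opposite signs for the other 7 members. For HOXB7 in CPM, the positive sign in LmnB1_6 comes from averaging the mCherry clones on a log scale, since its mean was 1.74 CPM in LmnB1_6 and 1.80 CPM over the 6 mCherry libraries. In TPM its means were 3.40 in LmnB1_6, 0.518 in mCherry_4 and 4.82 in mCherry_3, so LmnB1_6 lay above the midpoint of the mCherry clones. In LmnB1_16 against both mCherry clones, the log2 fold change was -4.00 ± 0.27 for HOXB9, -2.53 ± 0.36 for HOXB7, -1.90 ± 0.21 for HOXB6 and -0.23 ± 0.12 for HOXB3, but 2.70 ± 0.26 for HOXB4, and the median over the members was -1.80 beside 0.01 over all genes. Here 6 of the 8 members were called, 5 lower (HOXB5, HOXB6, HOXB7, HOXB8 and HOXB9) and HOXB4 higher, where 33.8% of all tested genes were called, 17.2% higher and 16.5% lower. In LmnB1_6 against the same clones, the log2 fold change was 4.99 ± 0.08 for HOXB3, 4.36 ± 0.11 for HOXB9, 4.32 ± 0.11 for HOXB6 and 3.10 ± 0.25 for HOXB4, with a median of 3.95 beside 0.00. All members but HOXB7 were called higher, 7 of 8, where 49.0% of all tested genes were called, 24.4% higher and 24.6% lower. HOXB7, at 0.61 ± 0.25, was called as well once replicate 2 or 3 of LmnB1_16 was left out. It was also called higher with the effective length offset (log2 fold change 1.14, edgeR adjusted p = 0.0117) and with limma on log2(TPM + 0.1) (0.92, limma adjusted p = 0.0368). HOXB4 was the 1 member of 8 called in the same direction in both LmnB1 clones, where 19.6% of all tested genes were. Both of its values average the mCherry clones on a log scale, and mCherry_4 had 8 counts of it. Beside mCherry_3 alone, HOXB4 was at 0.946 times that level in LmnB1_16 and 1.25 times in LmnB1_6, with overlapping libraries. The 2 contrasts share the mCherry libraries.

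Clones that carry the same construct differed too. In LmnB1_16 against LmnB1_6, the log2 fold change was -8.36 ± 0.21 for HOXB9, -6.22 ± 0.17 for HOXB6, -5.22 ± 0.11 for HOXB3, -3.14 ± 0.37 for HOXB7 and -0.40 ± 0.22 for HOXB4, with a median of -5.12 beside 0.00. Of the members 7 were called lower, all but HOXB4, where 34.4% of all tested genes were called, 17.8% higher and 16.6% lower. In mCherry_4 against mCherry_3, the log2 fold change was -5.55 ± 0.38 for HOXB4, -2.98 ± 0.31 for HOXB7, -2.94 ± 0.18 for HOXB6, -2.39 ± 0.17 for HOXB9 and -1.69 ± 0.13 for HOXB3, with a median of -2.44 beside 0.01. There 7 were called lower, all but HOXB2, where 37.4% of all tested genes were called, 19.9% higher and 17.4% lower. These counts too describe the values by which the members were chosen.

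**Figure D4:**
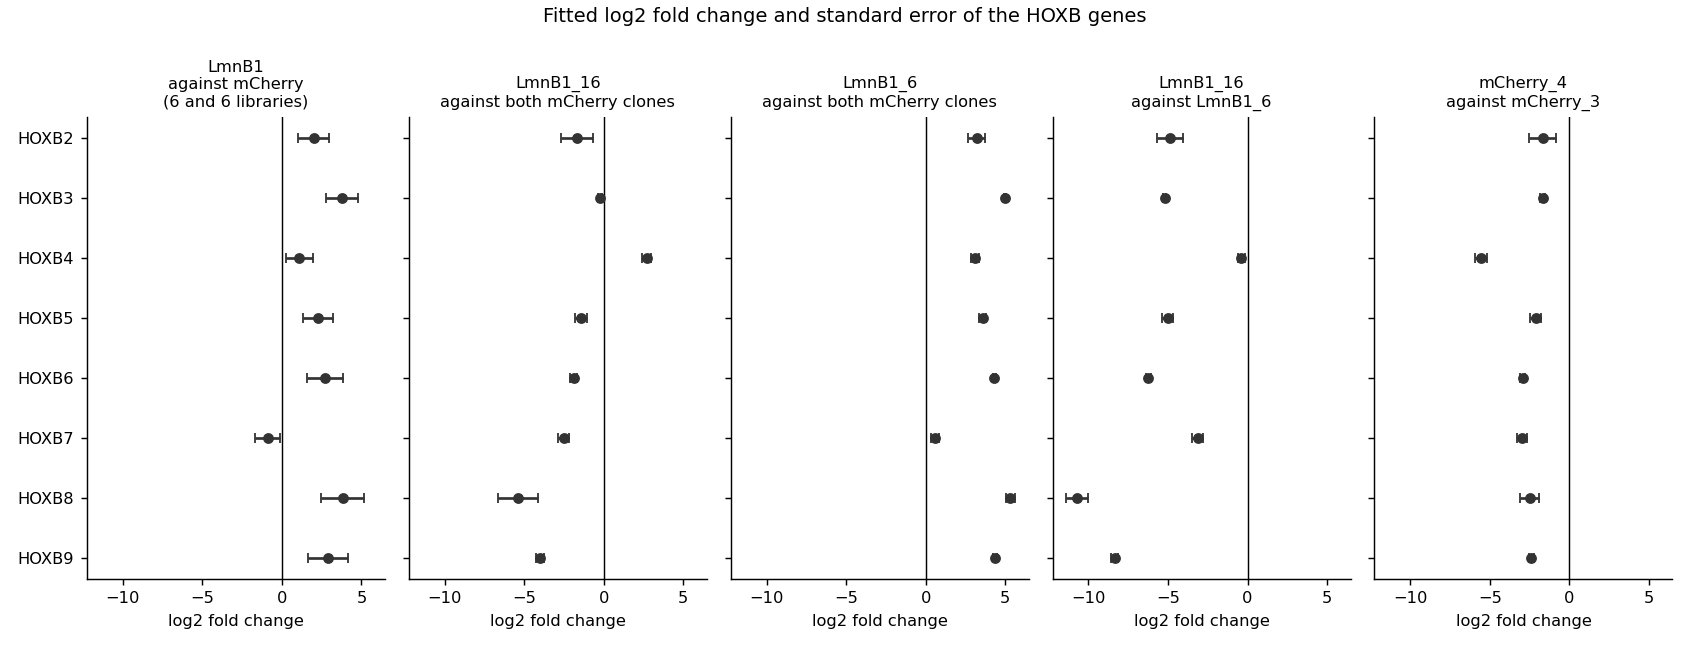
Fitted log2 fold change (points) with its standard error (whiskers) of the 8 members in 5 contrasts, the first group named in each title over the second, with 3 libraries per clone. LmnB1_16 and LmnB1_6 fall on opposite sides of 0 against the mCherry clones for every member but HOXB4, and all 8 members lie below 0 in mCherry_4 against mCherry_3. For HOXB7 the means were 1.74 CPM in LmnB1_6 and 1.80 CPM in the mCherry libraries, so in CPM its sign rests on the log scale.

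The cluster also holds non-coding genes. GENCODE 29 annotates 27 genes between HOXB1 and HOXB13, of which 15 had at least 1 count. Among the 19 that are not members, 12 had 0 counts in all libraries, HOXB1, HOXB13, MIR10A, MIR196A1, PRAC1 and PRAC2 among them, and a library of messenger RNA is not built to hold mature microRNAs. HOXB-AS3, an antisense RNA gene on the forward strand, had 0.146, 0.0492 and 0.0366 CPM in LmnB1_16, 1.46, 1.52 and 2.25 CPM in LmnB1_6, 0.0451, 0 and 0.127 CPM in mCherry_4 and 0.266, 0.251 and 0.407 CPM in mCherry_3. HOXB-AS2 had 0, 1 and 1 counts in LmnB1_16, 12, 12 and 18 counts in LmnB1_6 and none in the mCherry clones. HOXB-AS1, which did not pass the filter, had 0.110 ± 0.0971 CPM in LmnB1_16, 0.454 ± 0.0787 CPM in LmnB1_6, 0.0290 ± 0.0251 CPM in mCherry_4 and 0.0616 ± 0.0428 CPM in mCherry_3 (SD, n = 3 each). LmnB1_6 had the highest mean of the 4 clones for all 3 antisense genes. The labels do not say whether the counting used strand. Reads of HOXB-AS1, HOXB-AS2 and HOXB-AS3 cannot be told apart from those of HOXB2 to HOXB6 where the spans overlap.

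LINC03057 (chr17:48635923-48647023), a long non-coding gene on the reverse strand next to HOXB7, had 0 CPM in every library of LmnB1_16, 1.07, 1.03 and 1.14 CPM in LmnB1_6, 0.0451, 0.0835 and 0.0424 CPM in mCherry_4 and 5.36, 6.02 and 4.85 CPM in mCherry_3. It was highest in mCherry_3, as HOXB7 was, with LmnB1_6 at 0.200 times that level. In LmnB1_6 against the mCherry clones its log2 fold change was 0.90 ± 0.30 (edgeR adjusted p = 0.0207), where the 2 mCherry clones are averaged on a log scale, and the call was lost without replicate 1 or 3 of mCherry_4 or replicate 3 of LmnB1_6 (adjusted p = 0.0506 to 0.0573), and with DESeq2's Wald test (adjusted p = 0.0646). It was also lost without the filter on low counts (edgeR adjusted p = 0.0608) and with the effective length offset (log2 fold change 0.57, edgeR adjusted p = 0.266). In LmnB1_16, with 0 counts, the same contrast had an adjusted p of 4.03e-05. LINC02086, on the forward strand, whose first bases overlap those of LINC03057, had 1 count in LmnB1_6, none in LmnB1_16 or mCherry_4, and 18, 5 and 17 counts in mCherry_3. Reads from the overlap cannot be told apart. HOXB-AS4, opposite the first part of HOXB7, had its 6 counts in mCherry_3.

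Genes around the cluster were measured too. Within 500 kb on either side lie 45 further annotated genes, of which 13 were tested. In LmnB1_6 against the mCherry clones 6 of these rose and 3 fell, with a median log2 fold change of 0.15, where 24.4% of all tested genes rose and 24.6% fell. In LmnB1_16 1 rose and 3 fell, with a median of -0.11, where 17.2% of all tested genes rose and 16.5% fell. IGF2BP1, an RNA-binding protein gene, rose in both LmnB1 clones, with 29.8 ± 0.924 CPM in LmnB1_16, 49.3 ± 1.66 CPM in LmnB1_6, 25.2 ± 0.494 CPM in mCherry_4 and 20.3 ± 0.0959 CPM in mCherry_3 (SD, n = 3 each; construct log2 fold change 0.80 ± 0.16 SE, edgeR adjusted p = 0.00835). CALCOCO2, an autophagy receptor gene 102 kb away, fell in both (construct log2 fold change -0.33 ± 0.08, edgeR adjusted p = 0.0132). Its construct call was lost with limma on log2(TPM + 0.1) (adjusted p = 0.0643) and with clone as a random effect (limma adjusted p = 0.189). Leaving out clone LmnB1_6 or clone mCherry_3 ended it too, at log2 fold changes of -0.35 and -0.17. The construct call of IGF2BP1 was lost with clone as a random effect (limma adjusted p = 0.0564) and without clone mCherry_3 (log2 fold change 0.65). Chosen after their values were seen, GNGT2, 474 kb away, and PHOSPHO1, 494 kb away, were among the flanking genes whose clone means lay in the same high and low pairs as HOXB9. GNGT2 averaged 0.676 ± 0.245 CPM in LmnB1_16, 4.14 ± 1.07 CPM in LmnB1_6, 0.662 ± 0.0924 CPM in mCherry_4 and 5.73 ± 0.217 CPM in mCherry_3. PHOSPHO1 averaged 0.143 ± 0.0818 CPM in LmnB1_16, 1.59 ± 0.239 CPM in LmnB1_6, 0.263 ± 0.184 CPM in mCherry_4 and 1.07 ± 0.204 CPM in mCherry_3. UBE2Z, which lies between them and the cluster, averaged 217 ± 1.55 CPM in LmnB1_16, 224 ± 6.40 CPM in LmnB1_6, 211 ± 3.67 CPM in mCherry_4 and 223 ± 0.568 CPM in mCherry_3. Its means lay in the same pairs by small margins. The log2 fold change was -0.05 ± 0.05 in LmnB1_16 against LmnB1_6 and -0.08 ± 0.05 in mCherry_4 against mCherry_3. The means of SNF8, also between them and the cluster, SNX11 and SKAP1 lay in these pairs too. In the same contrasts SNF8 had -0.25 ± 0.07 and -0.05 ± 0.07. SNX11 had -0.26 ± 0.08 and -0.22 ± 0.08, and SKAP1 had -2.09 ± 0.76 and -0.42 ± 0.76.

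Members of the other HOX clusters were all but undetected. Of 31 further HOX genes in the files, 11 HOXA, 9 HOXC, 9 HOXD and the HOXB genes HOXB1 and HOXB13, 27 had 0 counts in every library. The other 4 summed to 16 counts over all libraries, of which 12 belonged to HOXD12, and none of the 31 reached a clone mean above 0.042 TPM or passed the filter. For a gene with 0 counts, 3 counts over the 12 libraries allow a level of up to 0.0103 CPM. No HOX gene besides HOXB2 to HOXB9 passed the filter, and single members were as faint in single clones, such as HOXB8 with 0 counts and HOXB2 with 2 counts in LmnB1_16.

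The labelled cell type was checked against its markers. Of 13 marker genes 8 averaged at least 1 TPM, led by the keratins KRT8 and KRT18 of simple epithelia, while RPE65, of the visual cycle, and TYR, of melanin synthesis, had 0 counts. The summed markers ran from 909 to 1047 TPM in LmnB1_16, from 638 to 715 in LmnB1_6, from 985 to 1066 in mCherry_4 and from 1439.5 to 1629 in mCherry_3. KRT8 and KRT18 made up most of each sum, such as 283 and 332 TPM in replicate 1 of LmnB1_6, so the sums say little on the other markers.

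In LmnB1_6, the clone with the highest HOXB levels, the pigment epithelium markers did not all move together: of the 9 tested, 6 fell and 1 rose against the mCherry clones, where 24.6% of all tested genes fell and 24.4% rose. Those that fell were MITF, OTX2, LRAT (log2 fold change -3.80 ± 0.35 SE), RDH5 (-0.67 ± 0.15), KRT8 (-0.59 ± 0.05) and KRT18 (-0.89 ± 0.06). In LmnB1_16 5 fell and 1 rose, where 16.5% of all tested genes fell and 17.2% rose. Between the mCherry clones 6 were lower in mCherry_4 and 0 higher, where 17.4% of all tested genes were lower and 19.9% higher. MITF, which directs pigment cell identity, had 11.5, 13.9 and 11.1 TPM in LmnB1_16, 0.198, 0 and 0.0462 TPM in LmnB1_6, 18.7, 21.4 and 18.3 TPM in mCherry_4 and 28.4, 24.8 and 24.9 TPM in mCherry_3. OTX2, a head homeobox gene required for pigment epithelium, had 12.6, 17.1 and 14.7 TPM in LmnB1_16, 0 TPM in every library of LmnB1_6, 8.92, 10.5 and 13.3 TPM in mCherry_4 and 14.7, 12.3 and 11.6 TPM in mCherry_3. LmnB1_6 was at or near 0 for both genes and the other 3 clones were not. In LmnB1_16, OTX2 rose against both mCherry clones (log2 fold change 0.39 ± 0.10 SE, edgeR adjusted p = 0.00714), although the libraries overlap in TPM. The lowest HOXB sum, 3.63 TPM on average, was that of mCherry_4, where OTX2 averaged 10.9 TPM, beside 14.8 TPM in LmnB1_16. Against both mCherry clones, MITF fell in LmnB1_6 (log2 fold change -9.52 ± 0.21 SE, edgeR adjusted p = 2.51e-15) and in LmnB1_16 (-0.78 ± 0.09, edgeR adjusted p = 3.67e-06). The marker that rose in LmnB1_6 was SERPINF1, which encodes a factor that pigment epithelium secretes, with 0.595 ± 0.0601 CPM in LmnB1_16, 1.43 ± 0.0711 CPM in LmnB1_6, 0.200 ± 0.0439 CPM in mCherry_4 and 0.526 ± 0.199 CPM in mCherry_3 (SD, n = 3 each; log2 fold change in LmnB1_6 2.12 ± 0.31 SE, edgeR adjusted p = 2.66e-05). RLBP1, a retinal carrier gene that was not tested, also had its highest mean in LmnB1_6, at 0.239 ± 0.131 CPM. PMEL, of the melanosome, was not called in LmnB1_6 (-0.16 ± 0.18, edgeR adjusted p = 0.485). mCherry_3 had the next highest HOXB sum and the highest MITF.

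**Figure D5:**
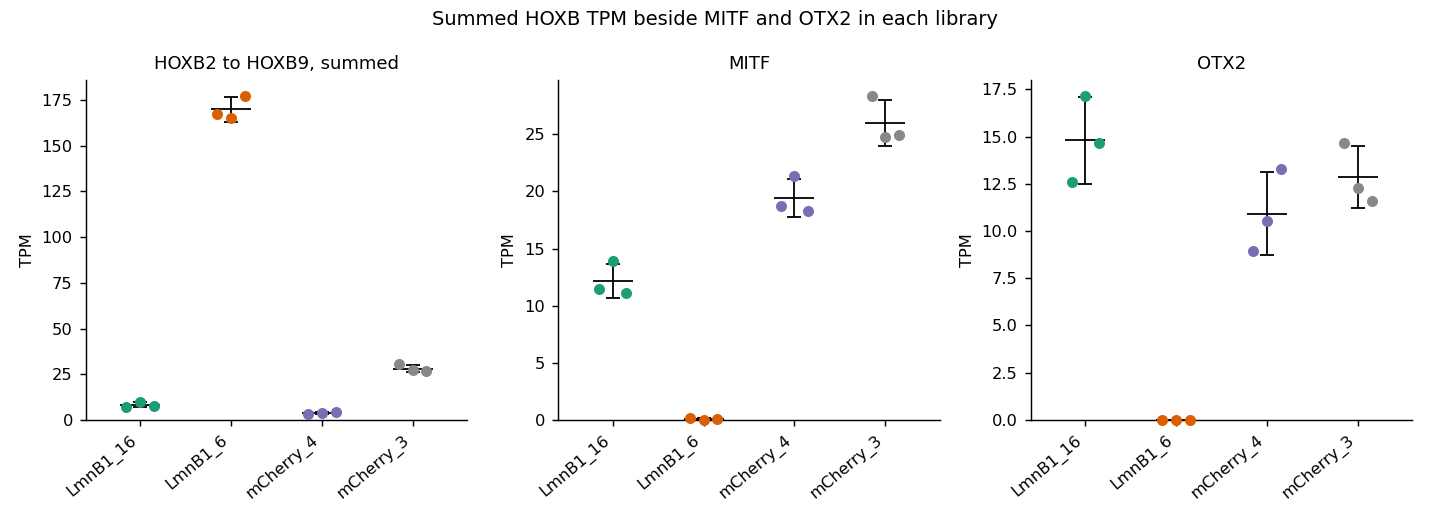
TPM in each library, by clone, of HOXB2 to HOXB9 summed and of the pigment epithelium genes MITF and OTX2, on linear axes from 0, with 1 point per library, bars at the means and whiskers of 1 SD (3 libraries per clone). LmnB1_6 has the highest HOXB sum, 165 to 177 TPM, and MITF and OTX2 at or near 0, while SERPINF1 of the same marker list, not drawn, was highest in that clone.

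Other lineages were scarce by their markers. The summed level of 4 leukocyte markers ran from 0.035 to 0.119 TPM in LmnB1_16, from 0.0765 to 0.321 in LmnB1_6, from 0.0658 to 0.261 in mCherry_4 and from 0.0244 to 0.197 in mCherry_3, with CD3E at 0. The 4 endothelial markers summed to 0.46 to 1.21 TPM in LmnB1_16, 0.0496 to 0.298 in LmnB1_6, 0.345 to 0.559 in mCherry_4 and 0.408 to 0.999 in mCherry_3. The 4 muscle markers summed to 0.205 to 0.39 TPM in LmnB1_16, 0.51 to 0.819 in LmnB1_6, 0.252 to 0.757 in mCherry_4 and 1.35 to 2.40 in mCherry_3, with MYOD1 and MYOG at 0 counts. The 4 neuronal markers summed to 1.45 to 1.497 TPM in LmnB1_16, 13.02 to 15.4 in LmnB1_6, 0.532 to 0.946 in mCherry_4 and 0.717 to 0.967 in mCherry_3. In LmnB1_16 and LmnB1_6 most of the neuronal sum was SNAP25, a synaptic vesicle fusion gene, with 1.14, 1.06 and 1.14 TPM in LmnB1_16, 12.7, 13.3 and 14.9 TPM in LmnB1_6, 0.681, 0.263 and 0.566 TPM in mCherry_4 and 0.567, 0.421 and 0.193 TPM in mCherry_3. It was high in LmnB1_6, while the neuronal genes RBFOX3 and ELAVL4 had 0 counts there. The part of MITF, OTX2 and SNAP25 in the HOXB values was not tested.

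Cofactors that bind DNA with HOX proteins were measured in all clones, except PBX4 with 0 counts and PKNOX2 with at most 1 count per clone. Of 9 PBX, MEIS and PKNOX genes 7 were tested, and 2 of these, PKNOX1 and PBX2, rose in both LmnB1 clones against the mCherry clones and 0 fell, where 10.4% of all tested genes rose and 9.28% fell in both. PKNOX1 averaged 26.6 ± 1.19 CPM in LmnB1_16, 27.6 ± 2.23 CPM in LmnB1_6, 22.5 ± 2.10 CPM in mCherry_4 and 22.4 ± 0.590 CPM in mCherry_3 (SD, n = 3 each), a construct log2 fold change of 0.27 ± 0.06 (edgeR adjusted p = 0.0131). This call was lost with limma on log2(TPM + 0.1) (adjusted p = 0.0574) and with clone as a random effect (limma adjusted p = 0.393). In LmnB1_16 its call was lost without replicate 2 of that clone (adjusted p = 0.0675), and that of PBX2 without replicate 1 or 3 of LmnB1_16, replicate 1 or 2 of mCherry_4 or replicate 1 of mCherry_3 (edgeR adjusted p = 0.0595 to 0.209). MEIS2 averaged 38.7 CPM in LmnB1_16, 34.9 CPM in LmnB1_6, 35.7 CPM in mCherry_4 and 37.3 CPM in mCherry_3. Chosen after its values were seen, MEIS3 was high and low in the same pairs of clones as most members but level between LmnB1_6 and mCherry_3, with 2.12 ± 0.518 CPM in LmnB1_16, 8.49 ± 1.89 CPM in LmnB1_6, 2.94 ± 0.131 CPM in mCherry_4 and 8.42 ± 0.877 CPM in mCherry_3. Its log2 fold change was -1.99 ± 0.20 in LmnB1_16 against LmnB1_6 and -1.52 ± 0.19 in mCherry_4 against mCherry_3.

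Of 21 genes of retinoic acid supply, binding and breakdown, 15 were tested, and 4 rose and 1 fell in both LmnB1 clones, where 10.4% and 9.28% of all tested genes did. RDH10, which makes retinal on the way to retinoic acid, rose in both (construct log2 fold change 1.07 ± 0.08 SE, edgeR adjusted p = 1.36e-05). STRA6, the receptor for retinol carried by its binding protein and a gene induced by retinoic acid, averaged 0.997 ± 0.570 CPM in LmnB1_16, 15.5 ± 3.44 CPM in LmnB1_6, 0.504 ± 0.0815 CPM in mCherry_4 and 0.160 ± 0.0558 CPM in mCherry_3 (SD, n = 3 each). STRA6 was highest in LmnB1_6 like most members but lowest in mCherry_3, where HOXB genes came next. CRABP2, a carrier of retinoic acid, fell in both (construct log2 fold change -1.07 ± 0.25, edgeR adjusted p = 0.0141). It averaged 8.98 ± 1.02 CPM in LmnB1_16, 8.10 ± 1.12 CPM in LmnB1_6, 11.3 ± 1.13 CPM in mCherry_4 and 24.5 ± 3.14 CPM in mCherry_3. Between the mCherry clones, mCherry_4 against mCherry_3, its log2 fold change was -1.12 ± 0.13. Its construct call was lost with clone as a random effect (limma adjusted p = 0.172). Leaving out clone LmnB1_6 or clone mCherry_3 ended it too, at log2 fold changes of -0.99 and -0.40. RXRA, a receptor subunit, was called higher in both at 0.18 ± 0.06 in LmnB1_16 and 0.27 ± 0.06 in LmnB1_6, and its call in LmnB1_16 was lost without any library of that clone, mCherry_3 replicate 1, mCherry_4 replicate 1 or 2, or LmnB1_6 replicate 2 (edgeR adjusted p = 0.0502 to 0.121). Of the list, 7 rose and 2 fell in LmnB1_16 against the mCherry clones, with a median log2 fold change of 0.15, where 33.8% of all tested genes were called. In LmnB1_6 5 rose and 6 fell, with a median of 0.03, where 49.0% of all tested genes were called.

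Of 29 Polycomb genes, all tested, 8 rose in both LmnB1 clones and 0 fell, where 10.4% of all tested genes rose and 9.28% fell in both. EZH2, the methyltransferase subunit, averaged 74.7 ± 5.57 CPM in LmnB1_16, 74.3 ± 2.80 CPM in LmnB1_6, 60.8 ± 1.63 CPM in mCherry_4 and 45.7 ± 2.68 CPM in mCherry_3 (SD, n = 3 each; construct log2 fold change 0.48 ± 0.10 SE, edgeR adjusted p = 0.00725). CBX2, a reader of the Polycomb mark, had a log2 fold change of 1.01 ± 0.21 (edgeR adjusted p = 0.00841), and SUZ12 and RNF2, a subunit of each Polycomb complex, had 0.21 ± 0.04 and 0.40 ± 0.09 (edgeR adjusted p = 0.00869 and 0.00956). The 4 genes were named for a call in the same direction in both LmnB1 clones. Their higher levels in LmnB1_16 and in LmnB1_6 were set by that choice, and nothing is read from them beside the HOXB genes. In LmnB1_16 against LmnB1_6, 1 Polycomb gene was higher and 8 lower, with a median log2 fold change of -0.08, where 17.8% of all tested genes were higher and 16.6% lower. The construct call of SUZ12 was lost with limma on log2(TPM + 0.1) (adjusted p = 0.102), and the call of RNF2 in LmnB1_16 with the effective length offset (edgeR adjusted p = 0.0534). With clone as a random effect the construct calls of EZH2, CBX2, SUZ12 and RNF2 were lost (limma adjusted p = 0.0869 to 0.306).

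Of 13 Trithorax and associated genes, all tested, 2 rose in both LmnB1 clones and 0 fell (10.4% and 9.28% of all tested genes), HCFC1 (construct log2 fold change 0.38 ± 0.06 SE, edgeR adjusted p = 0.00262) and DOT1L, a histone methyltransferase gene (0.45 ± 0.11, edgeR adjusted p = 0.0192). The call of DOT1L in LmnB1_16 was lost without replicate 1 of that clone (adjusted p = 0.101). With clone as a random effect the construct calls of HCFC1 and DOT1L were lost (limma adjusted p = 0.151 and 0.159). Of 8 listed regulators of HOX genes 2 were tested, and CTCF, which binds boundaries within HOX clusters, rose in both LmnB1 clones (0.41 ± 0.05, edgeR adjusted p = 0.000514). CDX1, CDX2, CDX4 and TBXT, which are known to switch HOX genes on in the embryo, had 0 CPM in every clone.

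Many other genes shared the clone pattern of the members. Among 11792 protein-coding genes other than HOX genes with a mean of at least 1 CPM, 141 had a Pearson's r over 0.9 and 41 over 0.95 with the members' mean standardised log2 CPM over the 12 libraries of 4 clones. The 5 most alike were RAB15 at 0.987, CORO1A at 0.983, PDGFB at 0.982, LAPTM4B at 0.981 and KAZN at 0.980. PDGFB, a growth factor gene, had the widest range of these, with 2.13 ± 0.415 CPM in LmnB1_16, 18.2 ± 3.51 CPM in LmnB1_6, 1.73 ± 0.273 CPM in mCherry_4 and 5.37 ± 0.549 CPM in mCherry_3 (SD, n = 3 each). LAPTM4B, a lysosomal membrane protein gene, had the narrowest, with 122 ± 5.996 CPM in LmnB1_16, 173 ± 7.86 CPM in LmnB1_6, 118 ± 4.25 CPM in mCherry_4 and 145 ± 2.17 CPM in mCherry_3. These genes lie on chromosomes 14, 16, 22, 8 and 1.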

How the data were processed

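Libraries of messenger RNA from 12 samples were sequenced by an outside provider, per the labels' protocols. STAR, Salmon and DESeq2 are named, with GRCh38 and hg38, per the submitters' processing notes, while versions, the annotation release and strandedness are not stated there. The authors deposited, per gene, Salmon's estimated count, TPM, length and effective length. Between 26.5% and 28.1% of detected genes had a fractional value (tolerance 0.001), and these estimates were rounded to whole counts. Of 60708 gene IDs 58440 were placed in GENCODE 29 and 60696 had a symbol. Depth was 20.6 to 29.5 M counts per library, with 14178 to 14927 genes at 10 counts or more.

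Genes were filtered by clone with filterByExpr (at least 10 counts, 15 in total) and fitted over all libraries with TMM scaling and edgeR 4.0.16's quasi-likelihood test in R 4.3.3, once by construct and once by clone, with Benjamini-Hochberg adjustment over 15388 genes. The fits were tested on simulated data with 200 changed genes. No 2 libraries of a clone agreed within sampling noise. Correlations used log2 CPM with a prior count of 2. Alternatives were DESeq2 1.42.0, limma 3.58.1 on log2(TPM + 0.1), other scaling and filters, an effective length offset, a replicate block, clones as units, and leaving out libraries or clones. The members and all gene lists were chosen with earlier results of these data known. Named besides the members and the genes from HOXB1 to HOXB13 were, per list, up to 4 genes called alike in both LmnB1 clones with the smallest adjusted p in the construct comparison, LMNB1, the 5 genes most like the members, and marker genes. Floors cover counting error only, while SDs are over the libraries of a clone and SEs come from the edgeR fits. Some sequences and 1 listed regulator are not reported here.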

Additional observations from a re-analysis of the deposited data

Results flagged for a closer look

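HOXB2 in the 6 mCherry libraries was flagged because 1 library stood apart from the rest. Replicate 2 of mCherry_3, with 0.358 CPM from 10 counts, had a gap to the next library of 0.666 of the whole range, and chance flags about 1 in 20 groups.

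For 6 members every LmnB1_16 library lay below the mean of the mCherry libraries and every LmnB1_6 library lay above it. The difference of CPM means, LmnB1_6 minus LmnB1_16, was 1.00 for HOXB2, 100.2 for HOXB3, 7.09 for HOXB5, 39.4 for HOXB6, 8.62 for HOXB8 and 68.7 for HOXB9. This pattern across clones was not tested as a difference of effects.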

How the results depend on the processing

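In the construct comparison 1 member was called, against 2 with DESeq2's Wald test, 0 with limma on log2(TPM + 0.1), 0 with the replicate block, 0 with counts summed per clone, 0 with clone as a random effect, 6 without clone LmnB1_16 and 0 without clone mCherry_4, and 0 to 2 with each library left out in turn. Without clone LmnB1_6 the log2 fold change turned to -0.46 for HOXB3 and -4.47 for HOXB9, and HOXB9 was called lower in place of HOXB3. Without clone mCherry_3, HOXB4 was called higher in place of HOXB3. Summed per clone, LMNB1 itself had an adjusted p of 0.779 and no gene was called by edgeR, with 642 genes at an unadjusted p under 0.05, so that fit says nothing on stability. Called genes of the whole table numbered 2743, against 1684 with limma on log2(TPM + 0.1), 1648 with the replicate block, 163 with the random effect, 4808 without clone LmnB1_16, 1263 without LmnB1_6, 4958 without mCherry_4, 647 without mCherry_3, and 1392 to 3078 with each library left out, where the libraries of mCherry_3 and LmnB1_6 gave the counts up to 1828. In LmnB1_6 against the mCherry clones, 7 to 8 members were called with libraries left out, and LINC03057 had a log2 fold change of -0.018 with limma on log2(TPM + 0.1). HOXB7 was called there with the effective length offset and with limma on log2(TPM + 0.1) as well. In the other 3 comparisons of clones, leaving out a library moved no member count. With clone as a random effect the construct calls of IGF2BP1, CALCOCO2, PKNOX1, CRABP2, EZH2, CBX2, SUZ12, RNF2, HCFC1 and DOT1L were lost. Those of CALCOCO2, PKNOX1, CRABP2, SUZ12, RNF2 and DOT1L were also lost without clone LmnB1_6 and without clone mCherry_3. That of CBX2 was lost without LmnB1_6, and that of IGF2BP1 without mCherry_3. Of the companion lists, 18 genes were called in the same direction in both LmnB1 clones, against 10 with the effective length offset, 9 with limma on log2(TPM + 0.1) and 14 to 19 with libraries left out. In LmnB1_16 against the mCherry clones, the effective length offset ended the calls of PKNOX1, PBX2, RXRA, RNF2 and DOT1L (edgeR adjusted p = 0.0534 to 0.163). Same-numbered libraries of different clones deviated together weakly, with an r of -0.0875 to 0.253 over 18 pairs, 5 of them over 0.1. Their median r was 0.0613, beside -0.0357 for other pairs, and 8 of 12 libraries were closest to their own number. The main fits did not use the numbers, and whether these pair the samples was not tested. The cause of these changes was not tested. Low counts limit HOXB2, HOXB8 and the antisense genes, and annotation that overlaps on the same and opposite strands limits all members.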
